A study of Mus musculus with 19 samples.

Results

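The comparison set induced pluripotent stem cells (iPSC) that lack the miR-290 microRNA cluster (miR-290KO iPSC) against wild-type (WT) iPSC. Its members were the 4 libraries whose labels name miR-290KO iPSC, as 2 colonies with 2 libraries per colony, and the 3 libraries labelled WT iPSC, 7 of the 19 libraries of the series. All were mouse cells grown with LIF and serum, made from embryonic fibroblasts by Oct4, Sox2 and Klf4 and collected more than 18 passages later. QuantSeq, which reads the 3′ ends of polyadenylated transcripts, measured expression. The other libraries were used for the spread between samples and for levels beside the main comparison: miR-302KO iPSC (4 libraries, 2 colonies), iPSC-like cells that lack both clusters (double KO, 4 libraries, 2 colonies), and embryonic stem cells (ESC) of the genotypes miR-290KO and miR-302KO (2 libraries each). The series text says that the colonies were derived independently and excepts the WT iPSC from that statement. The 3 WT libraries may therefore be 1 derivation, whose own peculiarities would enter every difference given here, and p-values may then be too small. The labels do not give the extent of the deletion, the sex of the donor embryos or a sequencing batch.

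MicroRNAs pair with messenger RNAs mainly through their seed, bases 2 to 8 from the 5′ end, and lower the level or the translation of the transcripts they pair with. The miR-290 cluster is the main source of microRNAs in mouse ESC, and the miR-302 cluster, which is more active in the epiblast after implantation, carries several microRNAs with the same seed. Known targets of that shared seed include brakes on the passage from G1 to S phase, receptors and inhibitors of TGF-beta signalling, and genes of the mesenchymal state. The mature sequences below, from RefSeq on GRCm38.p6, are shown because the search for targets rests on them. Capitals mark the seed, and the 5′ end is at the left. Those of miR-290a to miR-295 lie on chromosome 7, and those of miR-302b and miR-302d on chromosome 3.
miR-290a-3p: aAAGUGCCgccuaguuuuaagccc
miR-291a-3p: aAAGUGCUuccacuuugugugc
miR-294-3p: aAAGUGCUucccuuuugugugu
miR-295-3p: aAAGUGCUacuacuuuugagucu
miR-291b-3p: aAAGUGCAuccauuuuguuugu
miR-293-3p: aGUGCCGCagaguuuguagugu
miR-302b-3p: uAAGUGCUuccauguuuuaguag
miR-302d-3p: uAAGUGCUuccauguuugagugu
The strands of miR-291a, miR-294 and miR-295 share the seed AAGUGCU with miR-302b and miR-302d. That of miR-290a ends the seed in C and that of miR-291b in A, so all of these share its first bases. The strand of miR-293 carries another seed.

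Levels are given in CPM, counts scaled to a common library total, from reads recovered out of the authors' deposited log2 values. Differences are those of the deposited log2 values, KO minus WT, with the 2 libraries of a colony averaged, tested with limma across all 12778 genes. Calls were made where the adjusted p (Benjamini-Hochberg) was under 0.05. Library totals ran from 6433247 (library 2 of KO colony 2) to 24980223 reads (library 1 of the same colony) in the KO, and from 14491264 to 18726112 in WT. At 3 reads over a group, the smallest level told from 0 was 0.043 CPM in the KO and 0.058 CPM in WT. Reads carried no molecular identifiers, so these floors and the intervals below cover counting error only. An exact permutation test of 2 colonies against 3 libraries cannot give a two-sided p below 0.2. KO values follow in the order colony 1 library 1, colony 1 library 2, colony 2 library 1 and colony 2 library 2, and WT values in the order of libraries 1 to 3.

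The transcript that carries the cluster was lower in the knockout. The long noncoding RNA D7Ertd143e (RefSeq, chr7:3218784-3221015, GRCm38.p6) spans the positions of miR-291a to miR-295 and is the nearest proxy for the locus among the genes analysed. It stood at 50.9, 37.3, 59.2 and 53.3 CPM in the KO and at 138, 179 and 162 CPM in WT. Every KO library lay below every WT library, and the difference was −1.67 on the log2 scale (SE 0.25, limma adjusted p = 0.00839). The call was lost without KO colony 1 (−1.48, adjusted p = 0.0536) and without colony 2 (−1.86). Some signal was thus left in all 4 KO libraries, and whether the reads come from undeleted sequence was not tested. The other libraries that lack the cluster were low as well, at 52.6 ± 8.07 CPM (SD, n = 2) in miR-290KO ESC and 24.9 ± 6.18 CPM (SD, n = 2 colonies) in double KO iPSC. Libraries that keep it stood at 191 ± 65.6 CPM in miR-302KO iPSC (SD, n = 2 colonies) and 133 ± 8.93 CPM in miR-302KO ESC (SD, n = 2). The neighbouring gene AU018091 did not pass the test (difference −0.57, adjusted p = 0.668), and neither did Myadm (0.38, adjusted p = 0.594) nor Larp7, the host of the miR-302 cluster (0.31, adjusted p = 0.485). Of the 8 genes listed as neighbours of both loci 4 were analysed, of which D7Ertd143e was called.

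**Figure D1:**
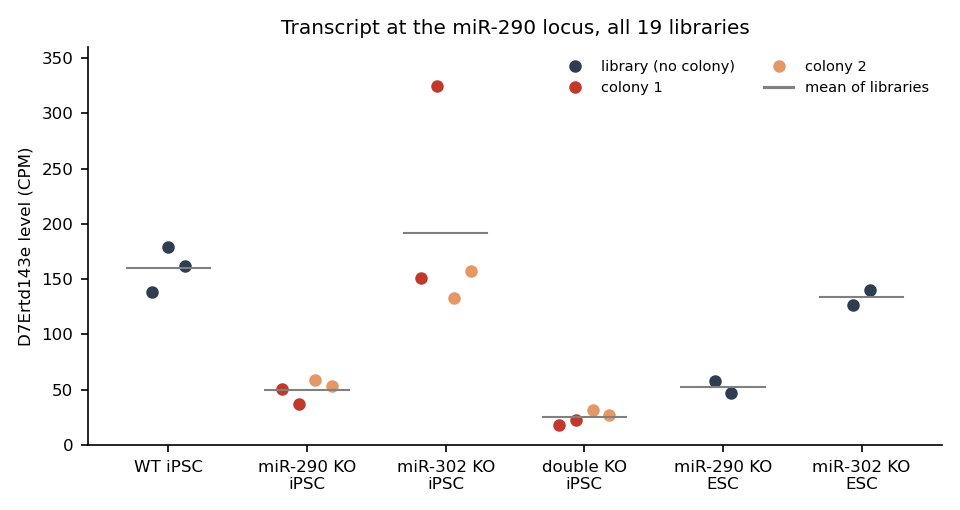
Level of the transcript D7Ertd143e in CPM (vertical axis) in each of the 19 libraries, grouped by genotype and cell type (horizontal axis); each point is 1 library. The 4 miR-290KO iPSC libraries lie between 37.3 and 59.2 CPM, below the 3 WT libraries at 138 to 179 CPM.

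Loss of the cluster went with more calls upward than downward. Of 12778 genes 201 (1.57%) were called, 155 higher (1.21%) and 46 lower (0.36%) in the KO. All 4 KO libraries lay above all 3 WT libraries for 1943 genes (15.2%) and below them for 800 (6.26%). The median difference of all genes was 0.14 on the log2 scale. Under a scaling that sets this median to 0.00, 187 genes were called, 102 higher and 85 lower, so that the share of higher calls moved from 77.1% to 54.5%; 148 genes were called both ways. The differences given below keep the deposited scale.

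Fewer calls were kept without colony 2 than without colony 1. These are counts at a threshold, so they do not say that colony 1 differed less from WT. Insm1 differed by 5.01 in colony 1 and 4.13 in colony 2, and Id1 by 3.18 and 2.3. Other genes went the other way, such as Ccnd2 (2.91 and 3.71) and Ehd2 (3.05 and 4.81). In the fits without 1 colony the lone colony left was assumed to vary like the other groups. Without colony 2, only Egfl6 and Emd kept their calls, and without colony 1 there were 117 calls, 64 of them shared with the 201. Leaving out WT library 1, 2 or 3 gave 46, 82 or 79 calls. The loss of a call without colony 2 holds for every called gene named below other than Egfl6 and Emd, and is not repeated. The difference of colony 1 alone, given for some genes, is the value without colony 2. Under the 31 alternative settings, 27 genes were called the same way in all of them except, for 25 of these, the one without colony 2.

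Emd, Ccnd2 and Meis2 were the calls with the smallest p-values, all higher in the KO. Emd, which encodes emerin, a protein of the inner nuclear membrane, stood at 150, 134, 120 and 117 CPM in the KO and at 32.7, 31.4 and 32.1 CPM in WT. The difference was 2.02 (SE 0.18, limma adjusted p = 0.00116). Emd was about as high in every other group (129 to 165 CPM on average), and the 3 WT libraries were the lowest of all 19, so for this gene WT stood apart from libraries that keep the cluster as well. The same position of WT, below all 16 other libraries, was seen for Ccne2, Meis2, Peg3 and Sox1 among the genes named here, and WT lay above all 16 for Ldhb and Nr6a1. Ccnd2, cyclin D2, an activator of the G1 kinases Cdk4 and Cdk6, rose from 7.72, 6.19 and 3.38 CPM in WT to 44.5, 39.5, 78.9 and 66.5 CPM. Its difference was 3.31 (SE 0.34, adjusted p = 0.00221), and miR-302KO iPSC stayed near WT at 8.94 ± 4.44 CPM (SD, n = 2 colonies). Meis2, a homeodomain partner of Hox proteins, stood at 111, 68.5, 62.9 and 93.3 CPM against 10.9, 14 and 10.4 CPM (difference 2.80, SE 0.31, adjusted p = 0.00284). In none of these 3 genes did the groups overlap.

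Secreted and membrane proteins were among the other genes that rose. Egfl6, a secreted matrix protein, rose by 2.02 (SE 0.25, limma adjusted p = 0.00499), Npnt, the integrin ligand nephronectin, by 2.88 (SE 0.37, adjusted p = 0.00499), and Galnt7, an enzyme that starts O-linked glycans, by 2.09 (SE 0.25, adjusted p = 0.00396). R3hdml rose by 3.41 (SE 0.49, adjusted p = 0.00772), and Ncam1, the neural cell adhesion molecule, by 1.90 (SE 0.28, adjusted p = 0.00772; chosen after its values were seen). Spry4, a feedback inhibitor of ERK signalling, stood at 6.56, 3.48, 2.16 and 4.82 CPM in the KO and at 0.272, 0.107 and 0 CPM in WT (difference 4.07, SE 0.58, adjusted p = 0.00758). Erdr1, of the pseudoautosomal region, was higher at 810 to 1570 CPM against 170 to 229 CPM (2.44, SE 0.31, adjusted p = 0.00499). Galnt7 lies on chromosome 8 and Spry4 on chromosome 18, whose genes were shifted as groups (below). With the median of each chromosome removed in each library, Galnt7 kept 1.67 (adjusted p = 0.00841) and Spry4 3.68 (adjusted p = 0.0142).

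**Figure D2:**
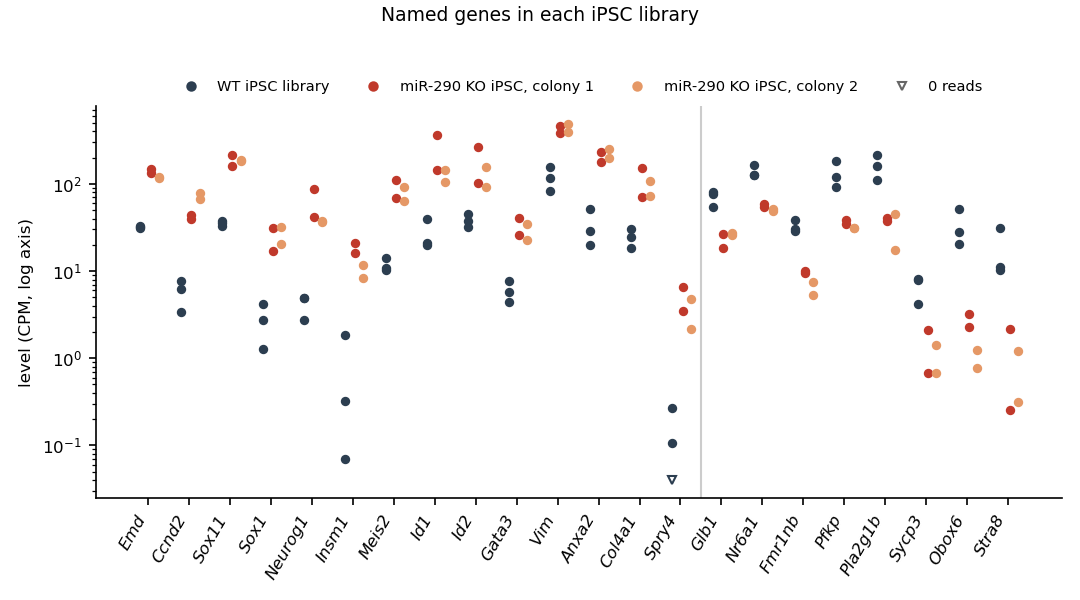
Level in CPM on a log axis (vertical) of 22 named genes (horizontal) in the 4 miR-290KO and 3 WT iPSC libraries; each point is 1 library, an open triangle marks 0 reads, and the vertical line separates genes that rose from genes that fell. The KO and WT points of each gene do not overlap; Ccnd2 lies at 39.5 to 78.9 CPM in the KO and 3.38 to 7.72 CPM in WT.

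The targets of the shared seed known from the literature stood above WT as a group, with 1 of them called. Of 25 such genes, all analysed, 1 was called higher and 0 lower, 13 (52.0%) had all 4 KO libraries above all WT libraries and 0 had them below, and 23 had a positive difference. The shares over all genes were 1.21% called higher, 15.2% above and 6.26% below. Their median was 0.86, against 0.14 over all genes, and 0.72 against 0.00 under the other scaling; the colonies alone gave 0.75 and 0.74. The list was written with earlier results of these data known. The called gene was Irf2, a repressor of interferon response genes, at 4.35, 5.63, 1.32 and 5.13 CPM in the KO and 0.217, 0.641 and 0.069 CPM in WT (difference 3.28, SE 0.64, limma adjusted p = 0.0281). Irf2 lies on chromosome 8. Its call was lost with the median of each chromosome removed (2.85, adjusted p = 0.0523), without KO colony 1 (2.84, adjusted p = 0.130), without library 2 of colony 2 (2.81, adjusted p = 0.0735), without WT library 1 (3.22, adjusted p = 0.0896) and without WT library 3 (2.83, adjusted p = 0.0791).

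Among the other listed targets, the differences that follow did not pass the test. Cdkn1a, the kinase inhibitor p21 that holds cells in G1, stood at 297, 254, 497 and 372 CPM in the KO and at 192, 160 and 227 CPM in WT, with all KO libraries above WT (0.86, SE 0.22, limma adjusted p = 0.0745). Smarcc2, a subunit of the BAF chromatin remodeller, had 31.6, 30, 32.3 and 23 CPM against 12.9, 13.1 and 19 CPM, again without overlap (0.98, SE 0.24, adjusted p = 0.0652). For Rhoc, a small GTPase of the actin cytoskeleton, the lowest KO library (48.8 CPM) lay below the highest WT library (58 CPM), with a difference of 1.14 (adjusted p = 0.0635). Mbd2, a reader of methylated DNA on chromosome 18, differed by 1.25 (adjusted p = 0.0927), and Dazap2 by 0.95 (adjusted p = 0.0865). Lats2, the Hippo pathway kinase, differed by 1.00 with overlapping libraries (adjusted p = 0.337), Casp2, an initiator caspase, by 1.00 (adjusted p = 0.105), and Bmpr2, a BMP receptor, by 0.86 (adjusted p = 0.143). Tgfbr2, the TGF-beta type II receptor, had 1.45, 5.76, 0.641 and 2.64 CPM against 0, 1.07 and 0 CPM, so the groups overlapped (2.88, adjusted p = 0.2). Nr2f2, an orphan nuclear receptor, had 5.21 to 8.86 CPM against 1.45 to 1.6 CPM (2.16, adjusted p = 0.131). The members at the other end were Slain1 (−1.65, adjusted p = 0.337), a microtubule-binding protein that was low in colony 2 only (−3.20, against −0.09 in colony 1), and Ddhd1 (−0.33, adjusted p = 0.719). Ei24, the apoptosis-related member with the highest level after Cdkn1a in WT, differed by 0.09 (adjusted p = 0.876).

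**Figure D3:**
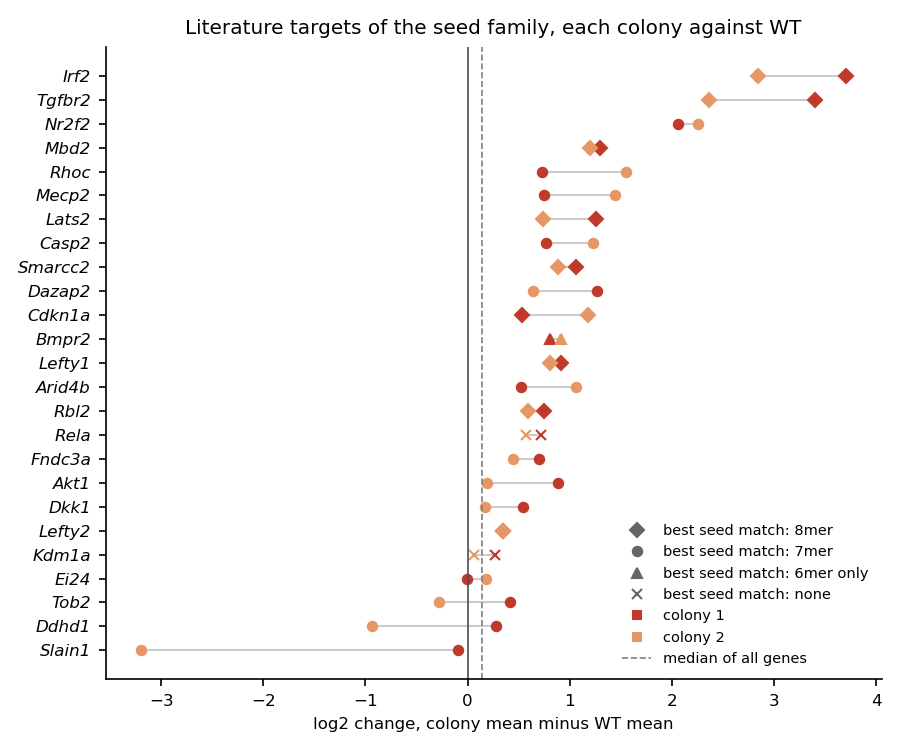
Difference from WT on the log2 scale (horizontal axis) of 25 literature targets (vertical axis) in KO colony 1 and colony 2, each a mean of 2 libraries minus the mean of 3 WT libraries; the marker shape gives the best seed match in the 3′ UTR and the dashed line the median of all genes. Most targets lie right of the dashed line at 0.14 in both colonies, and Slain1 lies at −3.20 in colony 2.

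The match to the shared seed was looked up in the 3′ UTRs of the GENCODE vM21 annotation on GRCm38, the build called mm10 in the submitters' processing notes. The longest 3′ UTR of each gene was searched on the transcript strand for AGCACTTA (8mer, pairing with bases 2 to 8 and an A opposite base 1), AGCACTT or GCACTTA (7mers, both held within the 8mer) and GCACTT (6mer, held within all of these). The sites below are 30 bases on the transcript strand with the 8mer in capitals. They belong to 4 called genes and 3 known targets whose values are given here.
Irf2, chr8:46846653-46846682, plus strand: ccttatcttgaAGCACTTAcaataggcctt
Ehd2, chr7:15950042-15950071, minus strand: cattcagtgaaAGCACTTAtagaggaccag
Ehd2, chr7:15949668-15949697, minus strand: gatatttattgAGCACTTActgtatgctgg
Vim, chr2:13582640-13582669, plus strand: gaaagaagctcAGCACTTAacaactgacac
Cd109, chr9:78716107-78716136, plus strand: tcttttttgtaAGCACTTAaagaaatattc
Cdkn1a, chr17:29100489-29100518, plus strand: gtgggtgtcaaAGCACTTAgtgggtctgac
Lats2, chr14:57691075-57691104, minus strand: agtatggaaagAGCACTTAttttgtggata
Tgfbr2, chr9:116087760-116087789, minus strand: tcaaaacctaaAGCACTTAttttcaatcta
Such a match is a stretch of letters and was not tested as a binding site.

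Genes with an 8mer stood a little higher in the KO than genes without a match. A 3′ UTR was found for 12208 genes (95.5%), of which 432 (3.5%) held the 8mer, 2092 (17.1%) a 7mer at best, 1509 (12.4%) a 6mer only and 8175 (67.0%) none. The median difference was 0.29 for the 8mer, 0.23 for the 7mer, 0.19 for the 6mer and 0.10 without a match. The gap between 8mer and no match was 0.19, and 0.18 in each colony alone. Over the 6 pairs of a colony and a WT library it ran from 0.13 to 0.26 (SD 0.05). Among the 8mer genes 11 (2.55%) were called higher and 0 lower, and 107 (24.8%) had all KO libraries above WT. Without a match 1.05% were called higher, 0.343% were called lower and 13.7% lay above WT. The classes differ in 3′ UTR length, with medians of 2821 bases for the 8mer and 775 bases without a match. Among genes with a 3′ UTR of 1000 to 3000 bases the medians were 0.25 with an 8mer and 0.14 without a match, a gap of 0.12 before rounding, and 26.3% against 15.3% lay above WT. The quartiles overlapped widely (−0.04 to 0.68 with an 8mer, −0.23 to 0.48 without a match). Most genes with a match were not called.

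The 11 called genes with an 8mer were Ano1, Cd109, Ehd2, Irf2, Lamp2, Ncoa7, Nfia, Phf20l1, Vim, Whsc1l1 and Zkscan1. Ehd2, an ATPase at caveolae, had 4.12, 4.74, 18.8 and 12.3 CPM in the KO and 0.326, 0.427 and 0.483 CPM in WT (difference 3.93, SE 0.71, limma adjusted p = 0.0219). Colony 2 was the higher of the pair for this gene (4.81 against 3.05 in colony 1), and both were above WT. Its call was lost without WT library 1 (adjusted p = 0.0779), 2 (adjusted p = 0.0570) or 3 (adjusted p = 0.0528). Cd109, a surface protein that binds TGF-beta, rose by 2.54 (adjusted p = 0.0171), from 1.87 to 2.76 CPM in WT to 10.3 to 19.7 CPM, and lost its call without KO colony 1 (2.58, adjusted p = 0.0652) and without WT library 1 (2.56, adjusted p = 0.0602) or 2 (2.40, adjusted p = 0.0523). Nfia, a transcription factor with 2 such sites, had 10, 10.4, 11.6 and 14.9 CPM against 1.96, 1.87 and 1.86 CPM (2.53, adjusted p = 0.0374); its call was lost without any 1 of the WT libraries (adjusted p = 0.0856 to 0.105), without KO colony 1 (2.72, adjusted p = 0.0957) and with the colony as a random block (adjusted p = 0.0642). Ncoa7, a nuclear receptor coactivator, rose by 1.27 (adjusted p = 0.0103), and Lamp2, a lysosomal membrane protein, by 1.12 (adjusted p = 0.0219).

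**Figure D4:**
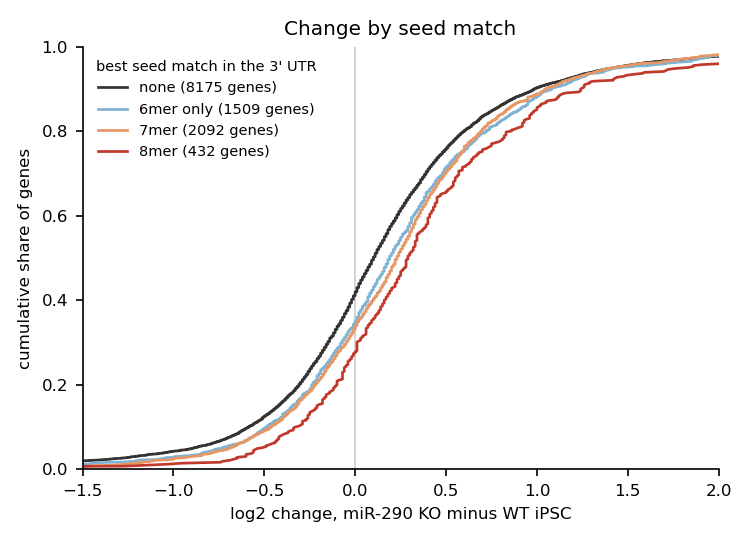
Cumulative share of genes (vertical axis) by difference of KO from WT on the log2 scale (horizontal axis) for genes grouped by their best seed match in the 3′ UTR: 8mer (432 genes), 7mer (2092), 6mer only (1509) and none (8175). The curves run close together, with medians of 0.29, 0.23, 0.19 and 0.10.

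The list of G1 to S cyclins and inhibitors held 2 calls, both cyclins. Of 24 genes analysed 2 were called higher and 0 lower, against 1.21% and 0.36% of all genes. In all libraries 6 (25%) lay above and 1 (4.17%) below WT, against 15.2% and 6.26% of all genes. The median (0.14) equalled that of all genes. The called genes were Ccnd2, given above, and Ccne2, cyclin E2, a partner of Cdk2, which rose from 16.2, 18.1 and 18.6 CPM to 48.6, 23.5, 63.4 and 37.3 CPM (1.21, SE 0.25, limma adjusted p = 0.0361). The call of Ccne2 was lost under the other scaling (1.07, adjusted p = 0.0719), without library 1 of colony 1 (0.94, adjusted p = 0.149), without library 1 of colony 2 (1.01, adjusted p = 0.0502), and without WT library 1 (adjusted p = 0.121), 2 (adjusted p = 0.0826) or 3 (adjusted p = 0.0791). Its relative Ccne1 stood on the other side, at 98.2 to 126 CPM in the KO and 153 to 216 CPM in WT, without passing the test (−0.77, adjusted p = 0.151). The kinase inhibitors Cdkn1c (2.05, adjusted p = 0.173), an imprinted gene, and Cdkn2c (1.80, adjusted p = 0.271) lay above WT in all libraries, also without passing it. The pocket protein Rbl2 had 3.6 to 6.68 CPM against 2.34 to 3.90 CPM (0.67, adjusted p = 0.544).

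Neural regulators stood above WT as a group. Of 16 listed genes 11 were analysed, 5 were called higher and 0 lower, against 1.21% and 0.36% of all genes. All KO libraries lay above WT for 7 (63.6%), against 15.2% of all genes, and the median was 1.86 (1.72 under the other scaling). Summed over the list, the level was 440 to 591 CPM in the KO and 102 to 154 CPM in WT. The defining neural genes Neurog2 and Dcx are not analysed here. In bulk cells, more cells of such a type and more RNA per cell cannot be told apart. Neurog1, a proneural factor, stood at 86.9, 41.8, 36.3 and 37.5 CPM in the KO and at 4.94, 2.78 and 4.90 CPM in WT (3.5, SE 0.51, limma adjusted p = 0.00777). Sox1, an early neuroectodermal factor, had 30.9, 17.2, 32.2 and 20.2 CPM against 2.77, 1.28 and 4.21 CPM (3.23, SE 0.41, adjusted p = 0.00499). For both genes the lowest KO library was several times the highest WT library. The call of Neurog1 was lost without KO colony 1 (3.15, adjusted p = 0.0611), and Sox1, on chromosome 8, kept 2.80 (adjusted p = 0.00796) with the median of each chromosome removed.

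The other called neural genes were Sox11, Insm1 and Nes. Sox11, a factor of neural progenitors and immature neurons, had 212, 159, 181 and 187 CPM in the KO and 33, 37.3 and 35.8 CPM in WT (2.38, SE 0.32, limma adjusted p = 0.00599). Insm1, a zinc finger factor of neuroendocrine and neural progenitors, had 21, 16.2, 8.33 and 11.8 CPM against 1.85, 0.320 and 0.069 CPM (4.57, SE 0.87, adjusted p = 0.0257), the largest difference among the called genes on the deposited log2 scale. By mean CPM Insm1 was at 1920% of WT. Among the called genes named here this was below Pdgfrl (17300%, with 1 read in WT), Cd44 (3580%), Spry4 (3370%) and Ehd2 (2420%). WT library 1 alone held most of the WT signal of Insm1, and the call was lost without WT library 2 (4.40, adjusted p = 0.0722), WT library 3 (3.84, adjusted p = 0.0694) or KO colony 1 (4.13, adjusted p = 0.118). Nes, the intermediate filament of neural stem cells, rose by 1.58 (adjusted p = 0.0398), a call lost without WT library 1 (1.42, adjusted p = 0.141), WT library 2 (1.41, adjusted p = 0.114), KO colony 1 (1.66, adjusted p = 0.105) or library 2 of colony 2 (1.53, adjusted p = 0.0530). Pax6 (2.20, adjusted p = 0.0885) and Olig2 (1.86, adjusted p = 0.364) lay above WT in all libraries without passing the test. Gbx2 was the list's 1 member with a negative difference (−0.51).

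The BMP effectors Id1 and Id2 rose. Both encode proteins that hold back basic helix-loop-helix factors and are direct targets of BMP signalling. Id1 stood at 363, 145, 144 and 106 CPM in the KO and 39.1, 20.8 and 19.7 CPM in WT (2.74, SE 0.42, limma adjusted p = 0.00897). Id2 had 263, 102, 158 and 92.5 CPM against 45.5, 37.2 and 32.2 CPM (1.90, SE 0.32, adjusted p = 0.0171). The first library of colony 1 was the highest for both genes, and the groups did not overlap. Without KO colony 1 neither was called (Id1 2.30, adjusted p = 0.0652; Id2 1.68, adjusted p = 0.0856), and Id2 was also lost without WT library 2 (1.88, adjusted p = 0.0509) or 3 (1.78, adjusted p = 0.0558). Id3 (1.25, adjusted p = 0.192) and the ligand Bmp4 (1.37, adjusted p = 0.206) lay above WT in all libraries without passing the test. Of 21 genes analysed on the Nodal and BMP list 2 were called higher and 0 lower, against 1.21% and 0.36% of all genes. The median of the list was 0.64 (0.51 under the other scaling). In all libraries 10 (47.6%) lay above and 1 (4.76%) below WT, against 15.2% and 6.26% of all genes. The 1 below was Nodal itself, the ligand that sustains the epiblast (−0.60, not called), and Lefty1, an inhibitor of Nodal and a target of the seed family, lay above WT (0.86, adjusted p = 0.303). Reads were not recovered for Lefty1 and Lefty2, so only their log2 differences are given.

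Several mesenchymal genes rose. No epithelial gene was called by limma in either direction, where 1.57% of all genes were called. On the mesenchymal list 21 of 22 genes were analysed, of which 5 were called higher and 0 lower, against 1.21% of all genes called higher. In all libraries 10 (47.6%) lay above and 1 (4.76%) below WT, against 15.2% and 6.26% of all genes. The median was 1.61 (1.47 under the other scaling). Vim, the intermediate filament vimentin, had 467, 383, 395 and 484 CPM in the KO and 156, 83.1 and 118 CPM in WT (1.91, SE 0.30, limma adjusted p = 0.0112). Anxa2, a membrane-binding annexin, had 177, 235, 249 and 196 CPM against 19.9, 51.8 and 29.2 CPM (2.77, SE 0.35, adjusted p = 0.00499). Cd44, the hyaluronan receptor, had 2.04, 4.17, 6.20 and 4.04 CPM against 0, 0 and 0.345 CPM (4.22, SE 0.77, adjusted p = 0.0219). All 3 were separated completely, although Cd44 was a weakly expressed gene in either group. Vim lost its call without KO colony 1 (1.94, adjusted p = 0.0521) and Cd44 without it (4.60, adjusted p = 0.0608) or without WT library 1 (3.92, adjusted p = 0.0779) or 2 (3.92, adjusted p = 0.0590).

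The remaining called genes of this list were the galectin Lgals1 (2.12, limma adjusted p = 0.0483) and the calcium-binding S100a6 (2.52, adjusted p = 0.0455). Both lost their calls under the other scaling (1.99, adjusted p = 0.0627 for Lgals1; 2.38, adjusted p = 0.0519 for S100a6), without KO colony 1 (2.12, adjusted p = 0.141; 2.09, adjusted p = 0.181), without WT library 1 (1.83, adjusted p = 0.166; 1.92, adjusted p = 0.107) and without WT library 3 (1.95, adjusted p = 0.123; 2.56, adjusted p = 0.0933). Lgals1 lost it also without library 2 of colony 1 (1.87, adjusted p = 0.0662) or of colony 2 (1.90, adjusted p = 0.0777), and S100a6 without library 1 of colony 2 (2.41, adjusted p = 0.0546). WT library 2 was the highest WT library for Anxa2, Lgals1, S100a6 and Tagln, which encodes the actin-binding transgelin (3.31, adjusted p = 0.0957, KO 24.1 ± 3.44 CPM, SD over 2 colonies, WT 1.20, 12.3 and 0.690 CPM). N-cadherin, Cdh2, lay above WT without passing the test (1.76, adjusted p = 0.142). On the epithelial list 18 of 18 genes were analysed and 0 were called in either direction or lay wholly above or below WT. Over all genes 1.57% were called, 15.2% lay above WT and 6.26% below it. The median of the list was 0.16, close to that of all genes. E-cadherin, Cdh1, had 260 to 505 CPM in the KO and 462 to 659 CPM in WT (−0.63, adjusted p = 0.641), lower in colony 1 (−0.33) and in colony 2 (−0.93). The authors' deposited table lists Cdh1 as lower (−0.75, adjusted p = 0.0271). The keratin Krt8 had 117, 512, 95.8 and 184 CPM against 36.6, 229 and 44.6 CPM (1.33, adjusted p = 0.348): within each group 1 library, library 2 of colony 1 and WT library 2, stood far above the rest, and the same libraries were highest for Krt18. Of 18 fibroblast markers 6 were analysed, summed to 29.8 to 44.3 CPM in the KO and 20.8 to 25.4 CPM in WT. Of the 6, 0 were called, against 1.57% of all genes. Above WT lay 2 (33.3%) and below it 0, against 15.2% and 6.26% of all genes. The collagen Col1a1 had 0 to 1.55 CPM in the KO and 0.163 to 3.42 CPM in WT. The part of leftover fibroblasts in the mesenchymal rise was not tested beyond these levels.

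Basement membrane genes were the members of the endoderm list that rose. Col4a1, a chain of type IV collagen, had 70.2, 151, 72.3 and 108 CPM in the KO and 24.5, 30.7 and 18.6 CPM in WT (1.99, SE 0.31, limma adjusted p = 0.0103). Its partner Col4a2 had 24.8, 66.2, 49 and 45.7 CPM against 6.47, 12.8 and 5.66 CPM (2.48, SE 0.54, adjusted p = 0.0417). Library 2 of colony 1 was the highest for both, and no KO library reached the WT range. These neighbours lie head to head on chromosome 8: with the median of each chromosome removed Col4a1 kept 1.57 (adjusted p = 0.0416) and Col4a2 had 2.06 (adjusted p = 0.0994). Col4a2 was also lost under the other scaling (2.35, adjusted p = 0.0539), without library 2 of colony 1 (2.13, adjusted p = 0.0695), without KO colony 1 (2.60, adjusted p = 0.115) and without WT library 1 (adjusted p = 0.134), 2 (adjusted p = 0.0523) or 3 (adjusted p = 0.109); Col4a1 was lost without KO colony 1 (1.88, adjusted p = 0.0590). Sparc, a matrix glycoprotein, rose by 1.35 (adjusted p = 0.0219), from 457 to 619 CPM to 1060 to 2050 CPM, and lost its call without WT library 1 (1.37, adjusted p = 0.0766) or 2 (1.23, adjusted p = 0.0654). In all, 10 of 20 genes of the list were analysed. Of these, 3 were called higher and 0 lower, against 1.21% and 0.36% of all genes. Above WT lay 4 (40%) and below it 0, against 15.2% and 6.26% of all genes. The median of the list was 0.37 (0.23 under the other scaling). The regulators Gata6, Sox17 and Foxa2 are not analysed here, and Gata4 did not pass (0.39). Itgb1, the beta-1 integrin chain that binds such matrix, also rose (1.44, adjusted p = 0.0103; named after its values were seen), on chromosome 8 as well, where 1.02 (adjusted p = 0.0491) remained after removal of the chromosome median; without KO colony 1 it was not called (1.14, adjusted p = 0.0633).

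The trophoblast list held 1 call and the mesoderm list 0, where 1.57% of all genes were called. Gata3, a factor of trophoblast and of several later lineages, had 40.9, 25.9, 34.4 and 22.5 CPM in the KO and 4.40, 7.74 and 5.80 CPM in WT (2.35, SE 0.33, limma adjusted p = 0.00689). It was the 1 call among 10 trophoblast genes analysed, with a median of 0.60 (0.46 under the other scaling). The defining factors Cdx2 (0.24) and Eomes (0.17) did not pass, and the summed level of the list was 166 to 239 CPM against 113 to 209 CPM. Of 11 mesoderm genes 0 were called by limma and 5 (45.5%) lay above WT, against 15.2% of all genes. Their median was 0.63 (0.49 under the other scaling). Over all genes the unadjusted p was under 0.05 for 2136 (16.7%). Hand1 had 3.49, 11.3, 5.04 and 13.1 CPM against 0.652, 0.748 and 0.621 CPM (3.17, adjusted p = 0.131), and the homeobox gene Evx1 8.24, 10.1, 9.01 and 5.60 CPM against 1.85, 1.55 and 0.483 CPM (2.69, adjusted p = 0.0516). Kdr, a VEGF receptor, had 72 reads in the KO and 3 in WT, and its pooled CPM were 17.9 times as high. The 95% interval of 5.88 to 88.7 (exact Clopper-Pearson) covers counting error only. By limma Kdr did not pass (2.49, SE 1.08, adjusted p = 0.27). The mesodermal gene T, at a difference of 0.02, lay at the level of WT.

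A few interferon-related genes rose. Of 16 genes analysed 5 (31.2%) lay above and 1 (6.25%) below WT, against 15.2% and 6.26% of all genes. The median was 0.54 (0.40 under the other scaling). Against 1.21% called higher and 0.36% called lower over all genes, 3 were called higher and 0 lower. Besides Irf2 these were B2m, the light chain of MHC class I, with 103, 129, 176 and 300 CPM in the KO and 32.9, 44.9 and 51.8 CPM in WT (1.94, SE 0.35, limma adjusted p = 0.0219), and Bst2, the antiviral protein tetherin, with 18.4, 23.1, 32.9 and 53.5 CPM against 3.42, 6.41 and 7.45 CPM (2.40, SE 0.42, adjusted p = 0.0195). Colony 2 was higher than colony 1 for both. B2m lost its call without WT library 1 (1.76, adjusted p = 0.0818) or 2 (1.98, adjusted p = 0.0545) and Bst2 without WT library 1 (2.08, adjusted p = 0.0732); Bst2, on chromosome 8, kept 1.98 (adjusted p = 0.0321) with the median of each chromosome removed. The MHC heavy chains H2-K1 (−0.62) and H2-D1 (−0.13) and the interferon factor Irf1 (−0.26) were not called. Gbp7 had 3.35, 4.87, 0.160 and 3.58 CPM against 0.489, 1.17 and 0 CPM, so 1 KO library fell within WT.

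On the deposited log2 scale, whose prior shrinks the differences of genes with few reads, Stra8 and Obox6 had the largest falls among the called genes. Stra8, which starts meiosis in germ cells, had 2.17, 0.253, 1.20 and 0.311 CPM in the KO and 10.4, 11.1 and 31.5 CPM in WT (−4.16, SE 0.86, limma adjusted p = 0.0355). Obox6, an oocyte-type homeobox gene, had 3.21, 2.28, 1.24 and 0.777 CPM against 28.4, 20.7 and 51.8 CPM (−4.12, SE 0.81, adjusted p = 0.0281). Low levels of Obox6 were not particular to libraries that lack the cluster. It had 0.982 and 0.0522 CPM in miR-302KO ESC. In miR-302KO iPSC it had 0.458 and 0.904 CPM in colony 1 and 27.4 and 0.197 CPM in colony 2. Sycp3, a component of the synaptonemal complex, had 0.679, 2.09, 0.681 and 1.4 CPM against 4.18, 8.17 and 7.80 CPM (−2.41, SE 0.42, adjusted p = 0.0187). No KO library reached the WT range in any of these 3 genes, and WT library 3 was the highest of WT for Stra8 and Obox6. All were sensitive to single samples. Stra8 was not called without KO colony 1 (adjusted p = 0.103), library 2 of colony 1 (adjusted p = 0.0642), library 2 of colony 2 (adjusted p = 0.0557) or any 1 of the WT libraries (adjusted p = 0.0735 to 0.101, differences −4.44 to −3.64). Obox6 was lost without KO colony 1 (adjusted p = 0.0578) or any 1 of the WT libraries (adjusted p = 0.0584 to 0.0893), and with the colony as a random block of libraries (adjusted p = 0.0547). Sycp3 was lost without KO colony 1 (adjusted p = 0.0570) or WT library 2 (adjusted p = 0.0612) or 3 (adjusted p = 0.0639).

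The germ cell list as a whole leaned downward. Of 22 genes analysed 0 were called higher and 2 lower, against 1.21% and 0.36% of all genes. In all libraries 0 lay above and 6 (27.3%) below WT, against 15.2% and 6.26% of all genes. The median was −0.61 (−0.74 under the other scaling). Rhox5, an X-linked homeobox gene (−2.79, limma adjusted p = 0.173), Hormad1 (−2.20, adjusted p = 0.0865) and Smc1b (−2.02, adjusted p = 0.133), both of the meiotic chromosome axis, lay below WT without passing the test. The germ cell genes Ddx4 (−0.06) and Dazl (−0.86) did not pass. Of the list of genes of the 2-cell stage and the oocyte 8 of 20 were analysed. Where 1.57% of all genes were called, Obox6 was the call, and the median of the list was −0.06. Rnf17, a Tudor protein of germ granules (−1.63, adjusted p = 0.0180), Fmr1nb, a testis antigen (−2.01, SE 0.29, adjusted p = 0.00772), and Aurkc, the meiotic Aurora kinase (−2.83, adjusted p = 0.0281), are on no list and fell; germline genes outside the lists were not counted. Aurkc was lost without KO colony 1 (−2.41, adjusted p = 0.127), WT library 2 (−3.07, adjusted p = 0.0523) or library 2 of colony 2 (−2.57, adjusted p = 0.0539), and Rnf17 without WT library 2 (−1.57, adjusted p = 0.0584) or 3 (−1.61, adjusted p = 0.0555), and with the colony as a random block (adjusted p = 0.0524). Gm5512 had 0 reads in the KO and 53 in WT, at least 23.7-fold lower at a floor of 3 reads over the group (−6.49 on the log2 scale in the authors' deposited table), a wider ratio than its difference on the deposited log2 scale shows. Its level did not follow the cluster in the other groups. It had 2.1 and 0.573 CPM in miR-290KO ESC, 0 CPM in miR-302KO ESC and 0 to 0.0987 CPM in miR-302KO iPSC.

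Nr6a1 and Pfkp gave some of the firmest falls. Nr6a1, the germ cell nuclear factor that silences Oct4 during differentiation, had 59.3, 54.7, 48.6 and 51.5 CPM in the KO and 126, 128 and 166 CPM in WT (−1.37, SE 0.22, limma adjusted p = 0.0110). Pfkp, the platelet form of the glycolytic enzyme phosphofructokinase, had 38.6, 34.9, 30.8 and 31.6 CPM against 120, 92.9 and 185 CPM (−1.90, SE 0.29, adjusted p = 0.00842). Glb1, the lysosomal beta-galactosidase, had 18.5, 26.3, 25.8 and 27 CPM against 77.1, 54.7 and 81.7 CPM (−1.53, SE 0.22, adjusted p = 0.00772). In each the KO libraries lay close together and far below WT, and the call was kept in 30 of 31 alternatives. Pla2g1b, a secreted phospholipase, fell by 2.21 (SE 0.35, adjusted p = 0.0108), from 111 to 212 CPM to 17.6 to 45.5 CPM, and lost its call without WT library 1 (−1.99, adjusted p = 0.0602). Ell3, a transcription elongation factor, fell by 1.98 (adjusted p = 0.0186), a call lost without KO colony 1 (−2.05, adjusted p = 0.0590) or WT library 1 (−1.91, adjusted p = 0.0779) or 2 (−1.93, adjusted p = 0.0584). Slc4a5, a bicarbonate transporter, fell by 3.14 (adjusted p = 0.0171), a call lost without WT library 1 (−3.11, adjusted p = 0.0662) or 3 (−2.90, adjusted p = 0.0601).

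The glycolysis list leaned downward. Where 1.57% of all genes were called, Pfkp was the 1 called gene among its 18. Of these, 4 (22.2%) lay below and 2 (11.1%) above WT, against 6.26% and 15.2% of all genes. The median was −0.24 (−0.38 under the other scaling). Pgk1, phosphoglycerate kinase, had 304 to 494 CPM in the KO and 631 to 813 CPM in WT (−0.86, limma adjusted p = 0.117), and Ldha, lactate dehydrogenase A, 704 to 844 CPM against 1070 to 1250 CPM (−0.65, adjusted p = 0.264). The brain enolase Eno2 lay above WT (1.64, adjusted p = 0.2). Ldhb, the other lactate dehydrogenase chain, was not on the list and fell by 1.98 (adjusted p = 0.0281; named after its values were seen), from 230, 300 and 182 CPM to 62.5, 86.1, 44.2 and 48.7 CPM; it was not called without KO colony 1 (−2.31, adjusted p = 0.0557) or any 1 of the WT libraries (adjusted p = 0.0528 to 0.0885).

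No pluripotency gene was called by limma, although the list lay below the median of all genes. Of 25 core and naive genes 0 were called in either direction, against 1.57% of all genes. Above WT lay 3 (12%) and below it 5 (20.0%), against 15.2% and 6.26% of all genes. A positive difference was seen for 7, and the median was −0.22 (−0.36 under the other scaling), against 0.14 over all genes. Summed over the 24 genes with reads the level was 6340 to 8170 CPM in the KO and 5980 to 7660 CPM in WT. Nanog had 672, 456, 404 and 491 CPM against 711, 651 and 707 CPM, with 1 KO library within WT (−0.46, adjusted p = 0.415). Pou5f1, Oct4, was uneven, at 909 and 700 CPM in colony 1 and 2430 and 1490 CPM in colony 2 against 703, 506 and 744 CPM (0.95, adjusted p = 0.168). Sox2 differed by −0.05 (adjusted p = 0.944). The 5 below WT were Prdm14 (−1.19, adjusted p = 0.121), Dppa3 (−1.14, adjusted p = 0.365), Tfcp2l1 (−1.08, adjusted p = 0.395), Tbx3 (−0.80) and Dppa5a (−0.76), all genes of the naive state. The authors' deposited table lists Nanog (−0.59, adjusted p = 0.041), Prdm14 (−1.28, adjusted p = 0.00377), Dppa3 (−1.44, adjusted p = 0.00344) and Tfcp2l1 (−1.23, adjusted p = 1.11e-05) as lower in the KO. Of 13 formative and primed genes analysed 0 were called and 2 (15.4%) lay above WT, near the 15.2% of all genes. Their median was 0.10, which became −0.04 under the other scaling. Otx2, which marks the exit from the naive state, had 0.841 to 6.22 CPM against 4 to 10.4 CPM (−0.89, adjusted p = 0.430). Of 19 genes of the p53 response 0 were called and 4 (21.1%) lay above WT, against 15.2% of all genes. Their median was 0.26 (0.12 under the other scaling).

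**Figure D5:**
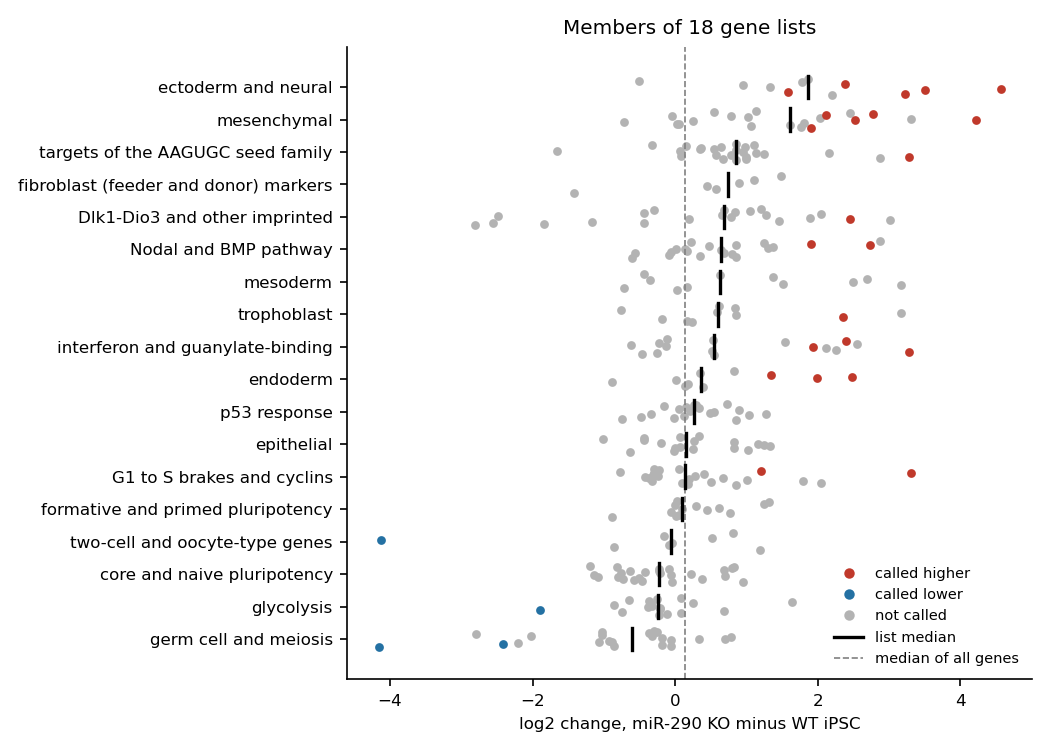
Difference of KO from WT on the log2 scale (horizontal axis) for the genes of 18 lists (vertical axis); each point is 1 gene, the bar is the list's median, and the dashed line is the median of all genes. The list of neural genes (median 1.86) and the mesenchymal list (1.61) lie farthest right, and the germ cell list (−0.61) farthest left.

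The colonies parted at an imprinted locus. The maternally expressed noncoding RNAs Rian and Mirg of the Dlk1-Dio3 region were low in colony 2 of the KO and not in colony 1. Rian had 92.3 and 107 CPM in colony 1, 3 and 1.87 CPM in colony 2 and 57.2, 67.3 and 47.5 CPM in WT, and Mirg 11.7 and 20.3 CPM, 0.040 and 0 CPM, and 10.8, 12.1 and 5.80 CPM. Both were also near absent in all 4 double KO iPSC libraries, at 0.0587 to 0.124 CPM for Rian and 0 to 0.0587 CPM for Mirg. Meg3 of the same cluster differed by 0.69 in colony 1 and −6.31 in colony 2. The list of 21 imprinted genes analysed held 1 call higher and 0 lower, against 1.21% and 0.36% of all genes. The median of the list was 0.68 (0.54 under the other scaling). Above WT lay 7 (33.3%) and below it 1 (4.76%), against 15.2% and 6.26% of all genes. The call was Peg3, a paternally expressed zinc finger gene, at 58.6, 23.3, 115 and 89.5 CPM against 8.15, 10.1 and 16.5 CPM (2.46, SE 0.48, limma adjusted p = 0.0281), lost without library 1 of colony 1 (2.12, adjusted p = 0.0873) or WT library 1 (2.24, adjusted p = 0.0983) or 2 (2.39, adjusted p = 0.0756). Igf2, a fetal growth factor, had 179, 819, 162 and 541 CPM against 21, 124 and 28.4 CPM, above WT in all libraries without passing the test (3.01, adjusted p = 0.110). The second library of each colony and the second WT library were the high ones for Igf2.

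Sex-linked genes also differed between the groups. Ddx3y, on the Y chromosome, had 49.8, 40.2, 47.5 and 52.2 CPM in the KO and 7.93, 8.06 and 8.69 CPM in WT (2.51, SE 0.30, limma adjusted p = 0.00396), and Eif2s3y (2.45, adjusted p = 0.0543) and Uty (1.95, adjusted p = 0.106) lay above WT in all libraries. The call of Ddx3y was lost with each library as a sample (adjusted p = 0.25) and with the colony as a random block of libraries (adjusted p = 0.292). Xist, the X inactivation RNA, had 0, 0.253, 4.32 and 0.466 CPM in the KO and 0 reads in WT. Of its 115 KO reads most came from library 1 of colony 2. Pooled over the group, Xist was at least 28.5-fold higher at a floor of 3 reads. The libraries overlapped, and the difference did not pass the test (2.14, limma adjusted p = 0.402). It was 0.73 in colony 1 and 3.54 in colony 2. With the sex chromosomes left out 197 genes were called, 194 of them among the 201. A difference in Y-linked genes between the lines cannot be told apart from the genotype here.

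Whole chromosomes were shifted as well. Relative to the median of all genes in each library, the median difference from WT of the 681 genes on chromosome 8 was 0.27, 0.29, 0.30 and 0.30 in the KO libraries and −0.05, −0.05 and 0.08 in WT. On chromosome 18, with 312 genes, it was 0.49 and 0.56 in colony 2, and 0.00 and −0.02 in colony 1. On the 18 other chromosomes with at least 100 genes it ran from −0.19 to 0.11 in the KO and from −0.07 to 0.07 in WT. Of the genes on chromosome 8, 20 (2.94%) were called higher and 0 lower, and 30.5% had all KO libraries above WT. With the median of each chromosome removed in each library 199 genes were called, 109 higher and 90 lower, of which 154 were among the 201; with chromosomes 8 and 18 left out 160 were called. Both settings were chosen after the shifts were seen, and the number of DNA copies was not measured.

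ESC of the same genotype gave levels in libraries that played no part in the difference between iPSC groups, although they entered the estimate of the spread. The 2 miR-290KO ESC libraries could be set against the 2 miR-302KO ESC libraries, since no WT ESC was analysed here, so loss of miR-302 in the second pair enters these values. Of the 155 genes called higher in miR-290KO iPSC, 108 (69.7%) had both miR-290KO ESC libraries above both miR-302KO ESC libraries, against 27.8% of all genes, and their median difference was 0.88, against 0.07. Of the 46 called lower, 30 (65.2%) had both below, against 18.8% of all genes, with a median of −0.58. Among the 25 literature targets 14 (56.0%) lay above, with a median of 0.64, and of the 432 genes with an 8mer 36.1%, with a median of 0.18, against 26.6% and 0.06 without a match. These shares carry no test.

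Single genes differed in how the other groups stood. Neurog1 was at 14.4 ± 2.77 CPM in miR-290KO ESC and 1.17 ± 0.174 CPM in miR-302KO ESC (SD, n = 2 each), and at 2.18 ± 0.407 CPM in miR-302KO and 0.455 ± 0.278 CPM in double KO iPSC (SD, n = 2 colonies each). Insm1 was at 6.06 ± 2.45 and 0.551 ± 0.263 CPM in the same ESC groups, and at 0.229 ± 0.290 and 0.130 ± 0.0962 CPM in those iPSC groups. Both were thus highest where miR-290 alone was missing. This did not hold for every neural gene. Sox1 was at 9.86 ± 0.664 CPM in miR-290KO ESC and 12.6 ± 3.58 CPM in miR-302KO ESC. Olig2 was at 60.3 ± 20.6 and 97.5 ± 0.652 CPM in the same groups (SD, n = 2 each). Pax6, at 3.8 ± 2.32 and 0.354 ± 0.28 CPM, stood as Neurog1 did. Pfkp was at 29.6 ± 2.30 CPM in miR-290KO ESC, near the KO iPSC, and at 171 ± 60.6 CPM in miR-302KO ESC and 198 ± 31.5 CPM in miR-302KO iPSC, near WT. Vim and Ccnd2 were far higher where both clusters were missing, at 2500 ± 816 CPM and 3970 ± 530 CPM (SD, n = 2 colonies each), than in miR-290KO iPSC. Differences between these groups were not tested.

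The authors' deposited table of this comparison lists 1429 genes up to an adjusted p of 0.0497, 878 higher and 551 lower in the KO, of which 1355 are analysed here. It holds 199 of the 201 genes called by limma (99%), all 199 in the same direction, and these are 14.7% of its analysed genes. All 1355 had the same sign here, and in 1219 (90.0%) the KO and WT libraries did not overlap. For D7Ertd143e the authors' deposited table gives −1.80 (SE 0.24, adjusted p = 1.33e-11). It was made from the same libraries.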

How the data were processed

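QuantSeq libraries of 6 groups (19 libraries) were grouped by their titles. The deposited matrix holds log2 values for 12778 genes, made by the authors with Trim Galore 0.66, STAR, Salmon 1.4.0 and the build mm10 per the submitters' processing notes, which also name FastQC 0.11.9, MultiQC, limma and DESeq2 1.34.0; which tool made which file is not given in the sources used here. From the values, they are log2 CPM with a prior of 0.91 to 3.52 reads (mean 2.41), shifted by a constant per gene. In 12235 genes (95.8%) that constant gave whole reads (99.6% of values within 0.02 of a read), which were used for levels in CPM, and 543 genes had none. Per the file headers, the authors' table of this comparison holds mean normalized signal, log2 fold changes and their standard errors, the score of a test, and p-values; its mean signal lay within 5% of the recovered reads for 100% of 1307 shared genes. Multiply mapped reads of paralogs may be split in ways not stated. In the matrix 6 columns of no library were not used, 19 gene names had become dates and 1 was repeated.

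Averaging within colonies left 13 samples of 6 groups, with 7 residual degrees of freedom, fitted with limma 3.58.1 (R 4.3.3, spread moderated with a trend), after a test on simulated data; tables were made with Python 3.11.15, numpy 2.4.6, pandas 2.3.3 and scipy 1.17.1. No count model was run, since the deposited values are not counts. Genes were named by rule: called genes without overlap between groups, the 14 with the largest rises and the 10 with the largest falls; the 8 further calls with the smallest p in each direction; every call within a list; and in each list the 3 largest differences, with the highest-level members for targets and pluripotency. Other genes, among them Ncam1, Itgb1, Ldhb, the remaining list members and the called genes with an 8mer, were named after their values were seen. The comparison and the 20 lists were chosen with earlier results of these data known. No 2 libraries of a group agreed within sampling noise (chi-square per degree of freedom of 34.4 to 169.2 in the KO and 37.6 to 49.2 in WT), and nothing says that the 2 libraries of a colony were separate cultures. Alternatives changed the scaling, filter, pseudocount, samples in the fit, block, spread, chromosomes and libraries. Some items are not reported here.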

Additional observations from a re-analysis of the deposited data

Results flagged for a closer look

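In 4 of 144 genes tested, 1 of the 4 KO libraries stood apart from the others by Dixon's ratio. The ratio is the gap to the nearest library over the whole range, and chance alone flags about 1 group in 20. Ratios refer to the deposited log2 scale, so they do not follow from the CPM printed beside them. For Neurog1, library 1 of colony 1 was high (86.9 CPM against 36.3 to 41.8 CPM, ratio 0.855). For Glb1 the same library was low (18.5 CPM against 25.8 to 27 CPM, ratio 0.884). For Tmem191c, library 2 of colony 2, the library with the fewest reads, had 0 CPM against 2.67 to 3.61 CPM (ratio 0.915). For Gbp7, library 1 of colony 2 had 0.160 CPM against 3.35 to 4.87 CPM (ratio 0.874).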

How the results depend on the processing

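Against 201 calls, 400 genes were called with a pseudocount of 2 CPM, 409 with each library as a sample, 343 with the colony as a random block of libraries and 386 with estimated sample weights. Leaving out 1 colony or library gave 2 to 300 calls, the lowest without KO colony 2 (117 without colony 1), and 46 to 82 without a WT library; leaving out a miR-290KO ESC library, which changes only the spread, gave 90 or 93, and a miR-302KO ESC library 298 or 300. With each library as a sample and the number in its label as a replicate block 149 genes were called (134 higher, 15 lower), 101 of them among the 201. Calls lost under this block include Ccnd2, Ccne2, Col4a2, Ddx3y, Ell3, Id2, Irf2, Lgals1, Nfia, Obox6, Pdgfrl, Rnf17 and S100a6. The numbers were not taken to pair the libraries, since the labels do not name a batch. Deviations of same-numbered KO and WT libraries correlated at 0.05, 0.22, 0.24 and 0.21. All KO libraries but library 1 of colony 1, which correlated at 0.15 with WT library 3, correlated best with their own number. The 2 libraries of a colony deviate from its mean by equal and opposite amounts, so these values are not independent. Whether the numbers mark a shared batch is not known. The genes with all 4 KO libraries below WT numbered 1432 under median-of-ratios scaling, against 800. The gap between 8mer and no match, 0.19, became 0.13 for the 7mer AGCACTT, 0.12 for any match and 0.12 for 3′ UTRs of 1000 to 3000 bases. Directions reversed for Ei24 (0.09), at −0.05 under scaling or with chromosome medians removed, −0.01 without colony 2 and −0.08 to 0.25 without a WT library; for Klf2 (0.38), at −0.04 with chromosome medians removed; for Sox2 (−0.05), at 0.03 with the replicate block, −0.16 to 0.03 without a WT library, 0.12 without colony 1 and 0.05 without library 2 of colony 1; and, without colony 2, for Meg3 (0.69), Mirg (0.75), Rian (0.81) and Zscan4d (1.48), whose main values are −2.81, −2.55, −1.84 and −0.86. The causes were not tested. Depth limits genes below about 1 CPM, most of all in library 2 of KO colony 2, where 3 reads are 0.466 CPM. Settings chosen after the data were seen are those that leave out samples of other groups, the chromosome settings and the restricted seed classes.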

Other observations

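Further genes outside the lists were among the 14 largest rises on the deposited log2 scale. They included Msln, mesothelin, with 22.4, 15.5, 15.8 and 6.68 CPM in the KO and 0.109, 0.694 and 1.79 CPM in WT (difference 4.25, limma adjusted p = 0.0277), and Pdgfrl, a PDGF receptor-like gene, with 179 reads in the KO and 1 in WT (CPM ratio 133, 95% exact Clopper-Pearson interval 23.6 to 5290). Both lost their calls without KO colony 1 (Msln 3.83, adjusted p = 0.120; Pdgfrl 4.18, adjusted p = 0.126) and without WT library 1 or 2, with adjusted p-values of 0.0779 and 0.0640 for Msln and 0.115 and 0.0785 for Pdgfrl; Pdgfrl was also lost without WT library 3 (adjusted p = 0.0879), without library 2 of colony 2 (adjusted p = 0.0667) and with chromosome medians removed (3.81, adjusted p = 0.0625).

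Axon guidance molecules were also among the calls, chosen after their values were seen. Ntn1, netrin-1, had 28.9, 26.1, 27.1 and 25.8 CPM in the KO and 6.68, 7.96 and 7.18 CPM in WT (1.88, limma adjusted p = 0.0281). Efna5, an ephrin ligand, had 11, 11.6, 12.5 and 12.7 CPM against 2.61, 3.84 and 2.62 CPM (1.96, adjusted p = 0.0219). The KO libraries agreed closely for both. Ntn1 lost its call without KO colony 1 (adjusted p = 0.0985) or WT library 1 (adjusted p = 0.0912), 2 (adjusted p = 0.0640) or 3 (adjusted p = 0.0760), and Efna5 without KO colony 1 (adjusted p = 0.0700) or WT library 1 (adjusted p = 0.0828) or 3 (adjusted p = 0.0639).

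The Argonaute gene Ago1, whose protein carries microRNAs, had 84, 72.2, 76.6 and 77.4 CPM in the KO and 47.9, 38.2 and 45.5 CPM in WT (0.83 in each colony, adjusted p = 0.0421); the call was lost under the other scaling (0.70, adjusted p = 0.0784), without KO colony 1 (adjusted p = 0.118), without library 1 of colony 1 (0.77, adjusted p = 0.0610), without library 2 of colony 2 (adjusted p = 0.0539) and without any 1 of the WT libraries (adjusted p = 0.0836 to 0.118).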
